A study of Mus musculus with 12 samples.

Results

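The sites described here are the 6165 positions in the mouse genome that share exactly 8 or 9 PAM-proximal bases with gRNA3. They were found by reading every NGG on chromosomes 1 to 19, X and Y of mm10, on either strand, and counting the unbroken run of bases that matches gRNA3 directly before it. A run of exactly 8 was found at 5203 sites and a run of exactly 9 at 962 sites, out of 276565900 NGG sites in all. Runs of 10 or more, which include the intended target, were found at 393 sites and are used only for comparison. The choice used sequence alone and no peak. A site was called bound in a library when a deposited peak overlapped at least 1 of its 23 bases, which are the 20 that face the guide and the 3 of the PAM.

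The data are anti-FLAG chromatin immunoprecipitation followed by sequencing in NIH-3T3, a line of mouse fibroblasts. All cells carried lentiviral FLAG-tagged dCas9, which was expressed from the hUbC promoter together with GFP and enriched by sorting GFP-positive cells, and an empty vector in the place of Cre recombinase. They differed in the lentiviral guide, selected with puromycin, which was gRNA3, directed at the Il33-002 promoter, or gRNAscr, a scrambled control. Each guide had 3 anti-FLAG libraries with a peak list each, which the methods describe as biological replicates. The lists held from 84 to 6667 peaks on the assembled chromosomes, covering from 23335 to 2002104 bases, and dCas9:gRNA3 replicate 3 held more peaks than any other library. Read totals were not used here.

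Cas9 first recognises the PAM, a short motif next to its target, and then opens the DNA from the PAM outward while the guide pairs with one strand. The PAM-proximal bases, called the seed, pair first, and a mismatch there stops the opening more readily than one at the far end of the guide. dCas9 lacks nuclease activity and can therefore stay at partly matched sites without cutting them, which an immunoprecipitation can recover.

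The sequences that carry the comparison are the target and, to show how little of it some bound sites shared, 7 sites bound in all 3 dCas9:gRNA3 libraries. Each is written 5′ to 3′ on the strand that carries the PAM. Capitals mark the bases of the run that matches gRNA3 and the GG of the PAM. Guide positions run from 1 at its 5′ end to 20 next to the PAM. A run of 8 ends at a mismatch at position 12 and a run of 9 at a mismatch at position 11. The target in Il33, at chr19:29945780-29945802 on the plus strand and in an annotated UTR, differs from gRNA3 by G1C alone. The study draws the first base of gRNA3 in more than one way, G was used here, and each substitution at position 1 depends on that choice.
Il33 target: cGACTGTGTTAGCTCTCCACcGG
chr12:52702774-52702796, minus, intron of Akap6: tgactgtattgGCTCTCCACaGG
chr4:121021925-121021947, minus, between genes: atctgtctgatGCTCTCCACtGG
chr9:99444947-99444969, minus, between genes: ctgtaaatcagGCTCTCCACaGG
chr14:103500489-103500511, minus, intron of Gm34907: cagccttgttcaCTCTCCACaGG
chr4:13875436-13875458, plus, intron of Runx1t1: tgctctcttcttCTCTCCACcGG
chr11:104303848-104303870, minus, intron of Mapt: caagatccctctCTCTCCACtGG
chr12:80751831-80751853, minus, between genes: gtatctttcttcCTCTCCACtGG

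The member in Akap6, highest by the median of its 3 fold enrichments, differed from gRNA3 at 3 positions (G1T, G8A and A11G). The other 6 differed at 7 to 11 of the 20 positions, so that most of them matched the guide over little more than the run itself. The site in Mapt, for example, carried G1C, G2A, C4G, T5A, G6T, T7C, G8C, T9C, A11C and G12T.

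The first question was whether a run of 8 or 9 bases was enough to place a site under a peak more often than NGG sites in general. With gRNA3, replicate 1 bound 17 members (0.276%, exact binomial 95% CI 0.161 to 0.441), replicate 2 bound 33 (0.535%, 0.369 to 0.751) and replicate 3 bound 64 (1.04%, 0.80 to 1.32). Among all NGG sites the bound share was 0.00283%, 0.032% and 0.11% in the same libraries. With gRNAscr, 0 of 6165 members were bound in replicates 1 and 3, which allows a share of up to 0.0487% (taken throughout as 3 counts of the total), and 1 was bound in replicate 2 (0.0162%), beside 0.00415%, 0.0012% and 0.018% of all NGG sites in replicates 1, 3 and 2. The 2 guides did not overlap. The mean was 0.616% ± 0.388 (SD, n = 3) with gRNA3 and 0.00541% ± 0.00937 (SD, n = 3) with gRNAscr (two-sided exact permutation test, p = 0.1). This is the smallest p that 3 libraries against 3 allow, so none of the comparisons between guides could pass 0.05. With 1 bound member among the gRNAscr libraries, their differences between classes of members were bound to lie at or near 0. The later tests on classes therefore cannot compare a preference between the guides. Their p reflects the signs of the differences in the dCas9:gRNA3 libraries. Intervals on shares cover counting error only.

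Relative to all NGG sites, members were bound 97.3 times as often in dCas9:gRNA3 replicate 1 (95% CI 56.7 to 156), 16.7 times in replicate 2 (11.5 to 23.5) and 9.46 times in replicate 3 (7.30 to 12.1). The ratio was thus highest in the dCas9:gRNA3 library with the fewest peaks. If members had been bound as often as all NGG sites, 0.175, 1.97 and 6.76 of them would have been bound in the 3 libraries. In gRNAscr replicate 2 the observed 1 bound member stood beside 1.11 by the same count. The excess over all NGG sites was 0.273, 0.503 and 0.928 percentage points in the dCas9:gRNA3 libraries and between -0.00415 and -0.00120 in the dCas9:gRNAscr libraries. The difference of 0.571 percentage points between the guides had an adjusted p of 0.117 over the 7 relations compared (two-sided exact permutation test, Benjamini-Hochberg).

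Of the 6165 members, 65 were bound in at least 1 dCas9:gRNA3 library (1.05%, beside 0.121% of all NGG sites). They fell into 16 sites bound in all 3 libraries, 17 bound in replicates 2 and 3, 31 bound in replicate 3 alone and 1 bound in replicate 1 alone. Of the members bound in the smaller peak lists nearly all were bound in the largest one, namely 16 of the 17 members bound in replicate 1 and all 33 bound in replicate 2 were also bound in replicate 3. With gRNA3 alone, that is in 2 or 3 of its libraries and without a gRNAscr peak, 32 members were bound (0.519%, 95% CI 0.355 to 0.732), beside 0.0154% of all NGG sites. That count was 15 without replicate 2 and also 15 without replicate 3. A peak in at least 2 gRNAscr libraries and in none with gRNA3 was found at 0 members, beside 0.000758% of all NGG sites. A peak in all 3 dCas9:gRNA3 libraries was found at 0.260% of members and 0.00227% of all NGG sites. In the other direction, 8.81%, 1.37% and 0.780% of the peaks in replicates 1, 2 and 3 held a member, which was 17 of 193, 28 of 2041 and 52 of 6667 peaks. Among the 50 peaks of highest fold enrichment in each library, 6, 7 and 8 held a member, and 13, 12 and 11 held a run of 10 or more. No peak held both.

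Of the bound members, 13 lay in a single tandem array at chr16:17947273-17947685, between genes, with the start of Slc25a1 as the nearest one. They stood 30 to 60 bases apart on the plus strand. The repeat unit is shown by 1 of them, since it fills several of the classes described further on.
chr16:17947513-17947535, plus, between genes: caatcacagtgaCTCTCCACtGG
All 13 shared 1 peak in replicate 3 with a fold enrichment of 4.32, and 6 of them also shared 1 peak in replicate 2 with a fold enrichment of 4.08. They are 1 bound locus rather than 13. Leaving out the 145 members that had another member within 500 bases, 52 bound sites remained of 6020. The bound shares became 0.282%, 0.449% and 0.847% in replicates 1, 2 and 3, and the number bound with gRNA3 alone became 26. This leaving out was chosen after the array was seen. None of the sites bound in all 3 libraries was lost by it.

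**Figure D1:**
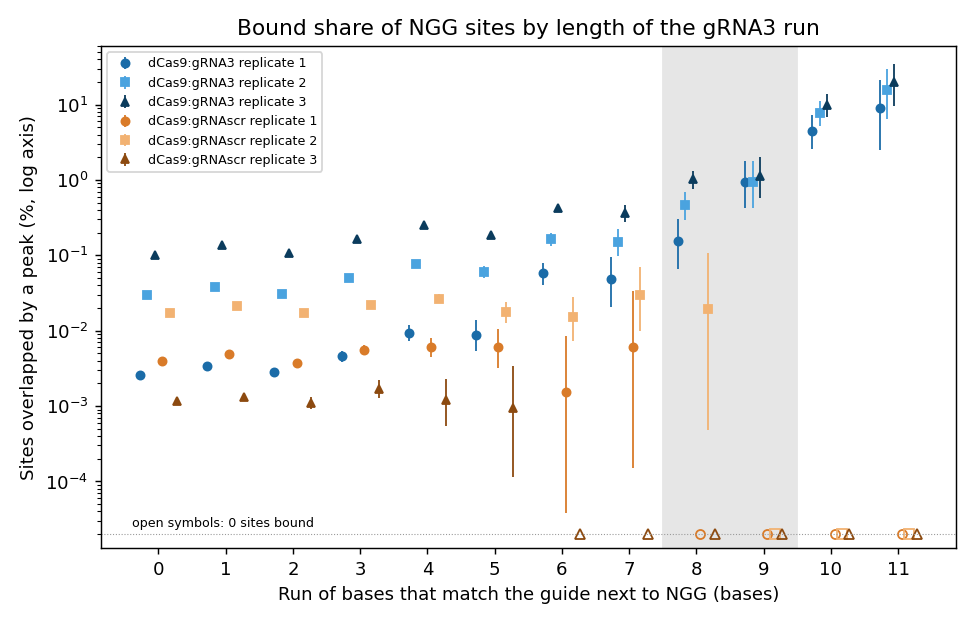
Percent of NGG sites overlapped by a peak (log axis) against the length of the run that matches gRNA3 (0 to 11 bases), for each of the 6 anti-FLAG libraries. Bars are exact binomial 95% intervals, open symbols on the dotted line are 0 bound sites, and the grey band marks the runs of 8 and 9, where the dCas9:gRNA3 libraries stand at 0.154% to 1.14% and dCas9:gRNAscr at 0.0192% or less.

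The length of the run separated the sites most clearly in the dCas9:gRNA3 library with the fewest peaks. In replicate 1, 8 of 5203 sites with a run of 8 were bound (0.154%, 95% CI 0.0664 to 0.303) and 9 of 962 with a run of 9 (0.936%, 0.429 to 1.77). In replicate 2 the shares were 0.461% (24 sites) and 0.936% (9 sites). In replicate 3 they were 1.02% (53 sites) and 1.14% (11 sites), and the intervals of the 2 run lengths overlapped in replicates 2 and 3. The difference between runs of 9 and 8 was therefore 0.782, 0.474 and 0.125 percentage points with gRNA3, and 0, -0.0192 and 0 with gRNAscr (difference between guides 0.467, two-sided exact permutation test, p = 0.1, adjusted p = 0.117). Without members within 500 bases of another, the array among them, it was 0.783, 0.586 and 0.361 percentage points in the 3 dCas9:gRNA3 libraries. Sites with a run of 9 were nearly the same in each library, since 8 of them were bound in all 3, whereas only 8 of the 53 bound sites with a run of 8 were. As a share of their class, 0.832% of runs of 9 (95% CI 0.360 to 1.63) and 0.154% of runs of 8 (0.0664 to 0.303) were bound in all 3 libraries, and these intervals did not overlap.

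Sites just outside the chosen range give the scale. Sites with a run of 7 were bound at 0.0481%, 0.150% and 0.361% in the 3 dCas9:gRNA3 libraries, and those with a run of 6 at 0.0577%, 0.163% and 0.421%, so the 2 did not differ beyond their counting intervals. Runs of 10 were bound at 4.52%, 7.83% and 9.94%. The share was higher for a run of 8 than of 7, and for 10 than for 9, in each dCas9:gRNA3 library, and of these only the intervals of 7 and 8 in replicate 1 overlapped. Without members within 500 bases of another, runs of 8 in replicate 2 were bound at 0.356% (95% CI 0.211 to 0.561), which overlaps the interval for runs of 7 (0.0973 to 0.222) as well. Bound in all 3 libraries were 6 of 16629 sites with a run of 7, 8 of 5203 with a run of 8, 8 of 962 with a run of 9 and 19 of 393 with a run of 10 or more. The target itself had fold enrichments of 54.0, 31.7 and 80.3 in the dCas9:gRNA3 libraries and no peak with gRNAscr.

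The peaks at the members were individually described by their fold enrichment, in which the authors' peak caller set the reads at the summit against the surrounding background. The Akap6 site, in an intron of the gene for a protein that anchors protein kinase A, had a fold enrichment of 16.9 in replicate 1, 18.5 in replicate 2 and 28.6 in replicate 3. It ranked 7th, 8th and 6th among all peaks of those libraries. The site at chr14:103500489-103500511, with 7 mismatches, had 14.9, 18.1 and 20.9. The site at chr4:121021925-121021947, which matched nowhere outside its run of 9, had 17.1, 14.4 and 15.1. These 3 sites were high in every dCas9:gRNA3 library and had no peak with gRNAscr.

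Other sites bound in all 3 libraries varied more between them. A site with a run of 9 at chr6:114988915-114988937, between genes, had 6.37 in replicate 1 and 13.1 and 13.2 in replicates 2 and 3. The site in an intron of Runx1t1, which encodes a transcriptional corepressor, had 8.51, 11.4 and 12.7. The site at chr1:120099572-120099594 had 9.95, 5.62 and 12.5. The site in an intron of Mapt, the gene for the microtubule-associated protein tau, had 7.84, 9.80 and 11.9. At chr9:99444947-99444969 the values were 5.06, 8.15 and 13.5. A site in an intron of Kif26b, which encodes a kinesin family member, ranged most widely, with 4.92, 6.97 and 20.5. A site in an intron of Angpt4, an angiopoietin gene, had 6.78, 5.36 and 7.74, and one in an intron of Clec16a had 5.69, 6.32 and 11.7. Replicate 3 held the highest value at each of these 8 sites, as it did for the target, and fold enrichments are comparable within a library only.

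The remaining 4 sites bound in all 3 libraries were named after their values were seen. A site on chromosome 18, between genes, had 9.22, 5.31 and 5.51. A site in an exon of Gm44066, at its transcription start, had 4.13, 5.68 and 4.04. A site in a UTR of Aco1, which encodes cytosolic aconitase, lay 338 bases from a start and had 4.66, 3.85 and 3.55. A site in an intron of Tmprss6, a gene for a membrane serine protease, had only 5 mismatches and 4.99, 3.68 and 3.72. The median fold enrichment over all peaks was 7.01, 5.28 and 5.29 in replicates 1, 2 and 3, and the last 3 of these sites stood below it in at least 2 libraries.

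Among the members bound in replicates 2 and 3 only, 7 were followed by name. The highest in replicate 3 was at chr9:22090332-22090354, with 4.75 in replicate 2 and 12.1 in replicate 3. A site in an intron of Slc22a23 had 4.14 and 8.03, and one at chr9:58214829-58214851 had 2.60 and 7.93. Sites in introns of Armc9, Gfod1 and Fgfr2, the last a receptor for fibroblast growth factors, had 4.92 and 5.76, 4.86 and 5.42, and 3.39 and 5.01. The array on chromosome 16 was the last. Across all 17 members of this kind the median was 4.08 in replicate 2 and 4.32 in replicate 3, values set by the array, against 7.56 and 12.2 for the 16 bound in all 3 libraries. The 31 members bound in replicate 3 alone had a median of 5.29 and a range from 1.87 to 8.85. They lay in 25 distinct peaks, and the repeated value of the array lowers this median. Over all 6667 peaks of that library the median was also 5.29.

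**Figure D2:**
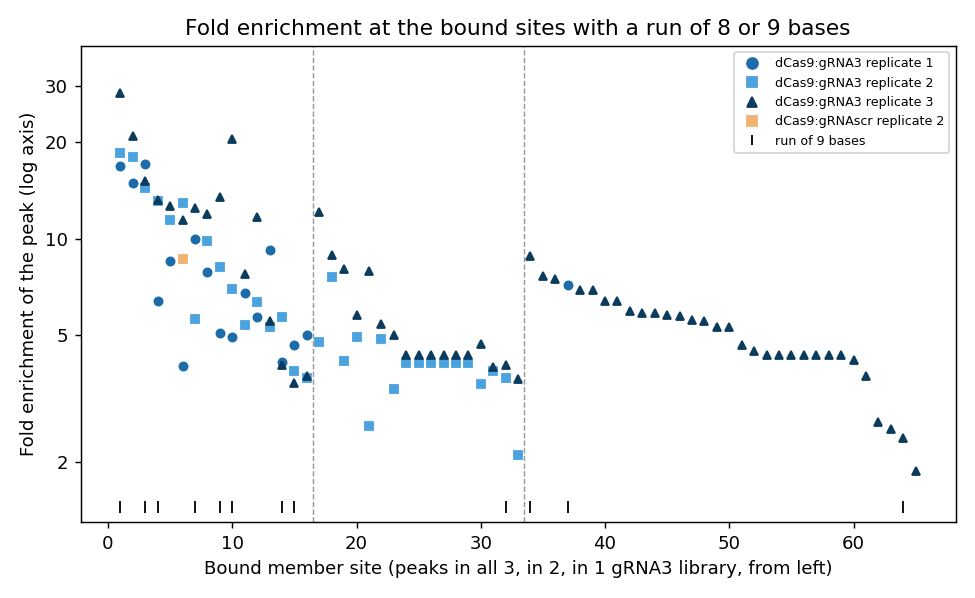
Fold enrichment (log axis) of the peak at each of the 65 bound members, sorted by the number of dCas9:gRNA3 libraries with a peak (all 3, then 2, then 1, split by dashed lines) and within these by median. Symbols are libraries and black ticks mark runs of 9; the 16 sites at the left reach 28.6, the 31 with a peak in replicate 3 alone stay at 8.85 or less.

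A single member had a peak with gRNAscr (0.0162%, beside 0.0197% of all NGG sites with a peak in any gRNAscr library). The site at chr12:80751831-80751853, between genes and in a stretch that the reference marks as a repeat, had 3.99, 12.9 and 11.4 in the dCas9:gRNA3 libraries and 8.61 in dCas9:gRNAscr replicate 2. The summit of the peak lay 166 bases from the site with gRNAscr and 56, 93 and 10 bases from it with gRNA3 in replicates 1, 2 and 3. It is therefore counted among the 16 sites bound in all 3 dCas9:gRNA3 libraries and not among the 32 found with that guide alone.

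Peak summits lay close to the members. In replicate 1, 16 of the 17 bound members had a summit within 50 bases of their 23 bases, in replicate 2 the number was 27 of 33, and in replicate 3 it was 42 of 64. As a share of all members these were 0.260%, 0.438% and 0.681%, beside 0.00132%, 0.0133% and 0.0440% of all NGG sites. At the sites bound in all 3 libraries the median distance was 6, 7 and 2 bases. Runs of 9 had medians of 3, 0 and 0 bases, and none of them lay over 33 bases from its summit. Runs of 8 had medians of 11.5, 15 and 29 bases and reached 56, 154 and 299 bases. Of these, 6 in replicate 2 and 13 in replicate 3 were array members measured to 1 shared summit per library. They raise both medians and hold both maxima. At the member of the chromosome 16 array shown here, the summits lay 154 bases away in replicate 2 and 149 in replicate 3.

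**Figure D3:**
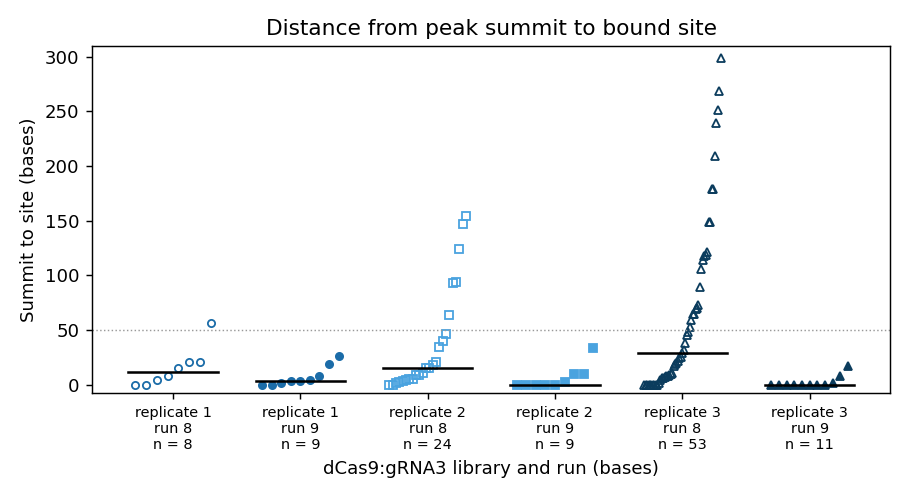
Distance in bases from the peak summit to the bound site for runs of 8 (open) and 9 (filled) in the 3 dCas9:gRNA3 libraries, where 0 is a summit within the 23 bases. Black lines are medians and the dotted line marks 50 bases; the 11 runs of 9 in replicate 3 have a median of 0, and the 53 runs of 8, of which 13 are array members, a median of 29.

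The total number of mismatches, which also depends on the length of the run, was compared next. The comparison was not repeated within a run length. Members with up to 7 mismatches over the 20 guide bases were bound at 0.853%, 1.14% and 1.85% in replicates 1, 2 and 3 (6, 8 and 13 of 703). Those with 8 or more were bound at 0.201%, 0.458% and 0.934% (11, 25 and 51 of 5462). The share was higher with fewer mismatches in each dCas9:gRNA3 library, by 0.652, 0.680 and 0.916 percentage points, and the difference between the guides was 0.755 (two-sided exact permutation test, p = 0.1, adjusted p = 0.117). Without members within 500 bases of another, that difference was 0.866. The intervals of the 2 classes overlapped in each library. Single counts of mismatches did not follow this order throughout, since members with 9 were bound at 0.0604%, 0.181% and 0.483% and members with 10, most of the array among them, at 0.241%, 0.723% and 1.14%. The class of fewest mismatches is small. Only 2 members had 3 mismatches, of which the Akap6 site was bound in every dCas9:gRNA3 library and the other in none, and 0 of the 5 with 4 mismatches were bound, which allows a share of up to 60%.

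Members without a peak and with few mismatches are shown because they shared far more of the guide than most bound sites did.
chrX:44302906-44302928, plus, between genes, 3 mismatches: ggactctgtgatCTCTCCACtGG
chr5:49320748-49320770, plus, intron of Kcnip4, 4 mismatches: ggactgctttctCTCTCCACtGG
They differed from gRNA3 by G6C, T10G and G12T, and by T7C, G8T, A11C and G12T. A further 2 with 4 mismatches and no peak were at chr2:45544927-45544949, between genes, and at chr11:116840626-116840648 in an exon of Jmjd6. All 4 of these sites had a run of 8. In contrast, the median number of mismatches was 8 at the 16 sites bound in all 3 dCas9:gRNA3 libraries, 9 at the unbound members and 10 at the 65 bound in any, or 9 without the array.

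Matches that continued directly beyond the first mismatch gave no stable order. Members with 3 or more matches there numbered 133, of which 1 was bound in each dCas9:gRNA3 library (0.752%). The Akap6 site was not among them, with 2. Members with fewer than 3 such matches were bound at 0.265%, 0.530% and 1.04%, so the difference was positive in replicates 1 and 2 and negative in replicate 3 (0.487, 0.221 and -0.293 percentage points). The difference between guides of 0.144 was smaller than the SD of 0.396 between the dCas9:gRNA3 libraries (two-sided exact permutation test, p = 0.7, adjusted p = 0.7). Over the alternatives it ranged from -0.719, without repeats, to 0.510, without sites that share a 23-base sequence.

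Position by position, the largest gap between the 65 bound and the 6100 unbound members over guide positions 1 to 10 was at position 10. There 53.8% of bound members matched (35 of 65, 95% CI 41.0 to 66.3), against 28.3% of unbound members (27.1 to 29.4). The array carries the matching base at that position. Without members within 500 bases of another the share was 42.3% (22 of 52) against 28.8% of 5968 unbound members, and the gap at position 6, of 32.7% (17 of 52) against 19.1%, was as large. At the 16 sites bound in all 3 libraries 50% matched at position 10 (95% CI 24.7 to 75.4).

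The base at the first mismatch was compared as a change within the class of the guide base, which is a purine at both positions, or to a pyrimidine. A purine stood there at 1926 members and a pyrimidine at 4239. The bound share was 0.415% against 0.212% in replicate 1, 0.986% against 0.330% in replicate 2 and 2.02% against 0.590% in replicate 3, higher with a purine in each dCas9:gRNA3 library. The difference between the guides was 0.773 percentage points (two-sided exact permutation test, p = 0.1, adjusted p = 0.117). Since the 13 array members all carry A at position 12, the comparison was repeated without members within 500 bases of another. The shares were then 0.441%, 0.717% and 1.43% with a purine and 0.214%, 0.333% and 0.594% with a pyrimidine, a difference between guides of 0.492. The intervals of the 2 classes then overlapped in replicates 1 and 2 and not in replicate 3. Both run lengths were pooled in this comparison.

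Within each run length the bases differed in their order. At runs of 8, without members within 500 bases of another, G12A was bound at 0.286%, 0.571% and 1.36% in replicates 1, 2 and 3, G12C at 0.133%, 0.332% and 0.731%, and G12T at 0.0926%, 0.232% and 0.463%. The order was the same in each library, although neighbouring intervals overlapped. At runs of 9, A11C was the rarest change (81 members) and was bound at 3.70% in each of the 3 libraries, by the same number of 3 sites. A11G was bound at 0.969%, 1.21% and 1.69% and A11T at 0.433%, 0.216% and 0.216%. The 3 sites with A11C were those in Kif26b, Gm44066 and Aco1, and their share has a 95% CI from 0.770 to 10.4.

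**Figure D4:**
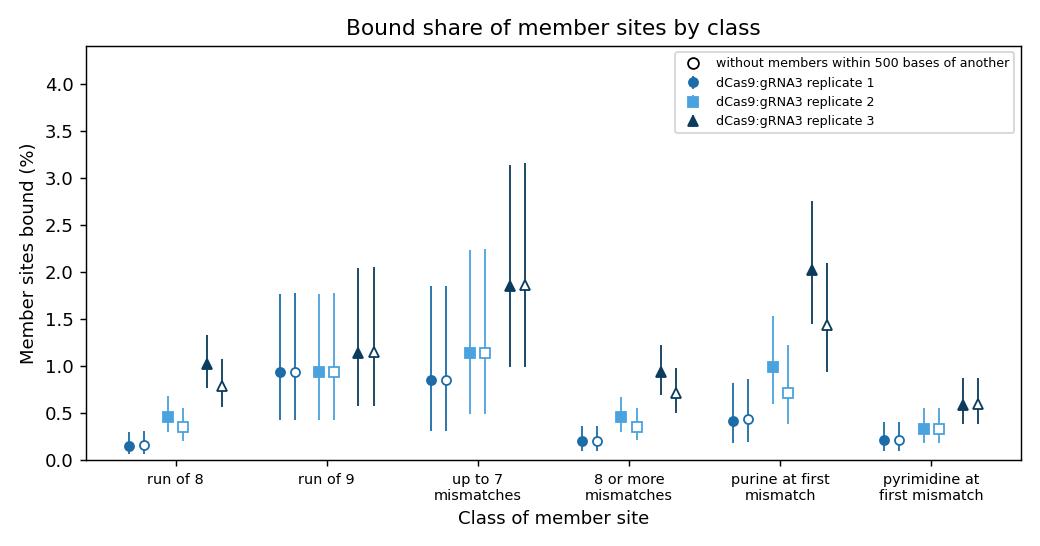
Percent of member sites bound in the 3 dCas9:gRNA3 libraries, by run length, total mismatches and class of the base at the first mismatch. Filled symbols are all members and open symbols leave out members within 500 bases of another, bars are exact binomial 95% intervals; the purine class of replicate 3 moves from 2.02% to 1.43% and the other classes less.

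The variable base of the PAM was compared because the target carries CGG. Members with CGG were bound at 1.13%, 1.13% and 2.63% in replicates 1, 2 and 3 (3, 3 and 7 of 266). Those with any other PAM were bound at 0.237%, 0.509% and 0.966%, and the intervals of the 2 classes overlapped in each library. The difference between the guides was 1.06 percentage points (two-sided exact permutation test, p = 0.1, adjusted p = 0.117). Over all NGG sites those with CGG were also bound more often, at 0.00431%, 0.0451% and 0.162% against 0.00277%, 0.0314% and 0.107% for other PAMs. Relative to these, members with CGG were bound 261, 25.0 and 16.2 times as often and members with other PAMs 85.7, 16.2 and 9.0 times as often. Within 1 kb of a transcription start lay 37 of the 266 members with CGG and 466 of the 5899 others, and 3 of the 7 bound CGG members were within 1 kb of one. Within 1 kb, 2, 2 and 3 of 37 members with CGG were bound. Beyond 1 kb the shares were 0.437%, 0.437% and 1.75% with CGG and 0.258%, 0.515% and 0.939% with another PAM. In replicate 2 CGG thus stood below the others, but 6 of the 28 others bound there were array members under 1 shared peak. As this split was not repeated without the array, the order in replicate 2 is not settled. Each of these CGG shares rested on 4 bound sites or fewer.

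Of the other PAMs, TGG was bound at 0.410%, 0.866% and 1.55% (9, 19 and 34 of 2195) and AGG at 0.168%, 0.336% and 0.740% (5, 10 and 22 of 2975). The array carries TGG, and without members within 500 bases of another TGG was bound at 0.416%, 0.602% and 0.972%, against 0.172%, 0.344% and 0.758% with AGG, and their intervals overlapped in each library. GGG was the lowest, with intervals that overlapped those of AGG in each library. Whether members with GGG lay in repeats more often was not tested. In replicate 1, 0 of 729 members with GGG were bound, which allows a share of up to 0.412%, and in replicates 2 and 3 the site in a UTR of Camkk2, named after its value was seen, was the only 1 (0.137%, 95% CI 0.00347 to 0.762). Over all NGG sites GGG was bound at 0.00293%, 0.0332% and 0.114% and AGG at 0.00274%, 0.0309% and 0.105%, which differ little from each other.

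Distance to the nearest annotated transcription start was compared last. Within 1 kb of a start, 2, 4 and 9 of 503 members were bound in replicates 1, 2 and 3 (0.398%, 0.795% and 1.79%), and farther away 15, 29 and 55 of 5662 (0.265%, 0.512% and 0.971%). The difference was positive in each dCas9:gRNA3 library, at 0.133, 0.283 and 0.818 percentage points, and the difference between the guides was 0.417 (two-sided exact permutation test, p = 0.1, adjusted p = 0.117). It fell to 0.018 with peaks of a fold enrichment of at least 4 and to 0.104 with a limit of 5 kb (exact permutation p = 1 and p = 0.7). All NGG sites were also bound more often near starts, at 0.00697%, 0.0531% and 0.178% within 1 kb against 0.00250%, 0.0303% and 0.104% beyond. Relative to all NGG sites of the same distance class, members were bound 57.0, 15.0 and 10.1 times as often within 1 kb and 106, 16.9 and 9.32 times as often beyond it. The ratio was lower within 1 kb than beyond it in replicates 1 and 2 and slightly higher in replicate 3. The 29 members bound beyond 1 kb in replicate 2 include 6 of the array, and the ratio was not computed without them. Leaving out members within 500 bases of another, the near-start difference between the guides was 0.525 percentage points. The higher share near starts also depended on members with CGG, most plainly in replicate 1. Members with another PAM were bound at 0%, 0.429% and 1.29% within 1 kb (0, 2 and 6 of 466). Beyond 1 kb their shares were 0.258%, 0.515% and 0.939%, so with every member counted the direction reversed in replicates 1 and 2. In replicate 2, however, 6 of the 28 members bound there belonged to the array and shared 1 peak. The split by PAM and distance was not repeated without the array, so the direction in replicate 2 is not settled.

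The peaks at members near a start were also the lower ones, with a median fold enrichment of 4.39, 3.75 and 4.02 in replicates 1, 2 and 3 against 7.16, 4.92 and 5.52 farther away. Of the 1114 members over 50 kb from a start, 0 were bound in any library, which allows a share of up to 0.269%. All NGG sites at that distance were bound at 0.000866%, 0.0141% and 0.0452%, also the lowest of the 4 distance classes. Had these members been bound as often as all NGG sites at that distance, 0.504 of them would have been bound in replicate 3. Most bound members were between 5 and 50 kb from a start, 12 of 17, 25 of 33 and 43 of 64 in the 3 libraries, as were 55.2% of all members and 54.7% of all NGG sites. Without members within 500 bases of another, replicate 3 had 30 of 51 there.

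**Figure D5:**
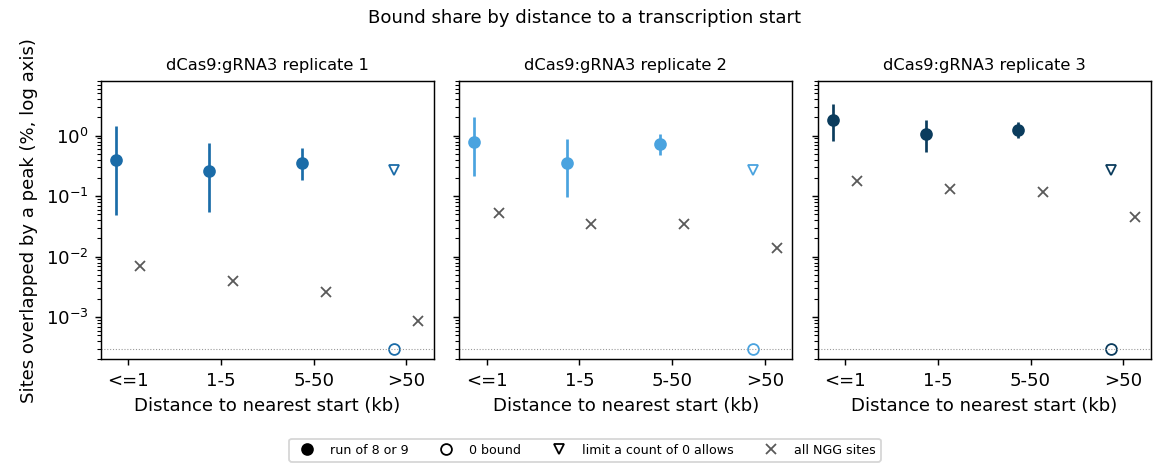
Percent of sites overlapped by a peak (log axis) by distance to the nearest transcription start in kb, for the 3 dCas9:gRNA3 libraries. Filled circles are members with exact binomial 95% intervals, crosses are all NGG sites, open circles are 0 bound members and triangles the share of up to 0.269% that a count of 0 allows; circles stand above crosses in every class with a bound member.

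Of the 65 bound members, 29 lay in introns, 28 between genes, 3 in UTRs, 2 in coding sequence and 3 in other exons. Over all members 41.3% lay in introns and 49.1% between genes, against 44.6% and 43.1% of the bound. UTRs, coding sequence and other exons held 1.93%, 5.81% and 1.88% of all members, against 4.62%, 3.08% and 4.62% of the bound. The array accounts for 13 of those between genes. Without it, 55.77% of the 52 bound members lay in introns and 28.85% between genes. The reference marks 5 of the 65 as repeats (7.69%), against 23.8% of unbound members, and 4 of these 5 were bound in all 3 libraries. In replicate 1 members in repeats and outside them were bound at 0.274% and 0.276%, in replicate 2 at 0.343% and 0.595%, and in replicate 3 at 0.343% and 1.25%. Over all NGG sites, those in repeats were bound less often, at 0.000938% against 0.00388%, 0.0103% against 0.0439% and 0.0369% against 0.150%. The median GC content of the 200 bases around a site was 53.0% at bound and 48.5% at unbound members, or 52.0% at bound members without the array. The part of GC content in these shares was not tested. Identical 23-base sequences occurred at 978 members, so the 6165 sites hold 5385 distinct sequences, and 14 of the bound sites shared theirs with another member.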

How the data were processed

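Peak lists of 6 anti-FLAG libraries were used, grouped by guide from the labels. Per the submitters' processing notes, reads passed through bcl2fastq 2.20, Trim Galore 0.6.4, Bowtie2 2.3.4.1 (mm10) and MACS2 2.2.7.1. The authors called peaks in each library separately, with reads extended to 204 bp. The deposited columns are a score, a fold enrichment (a ratio to local background), a −log10 p-value, a −log10 q-value and a summit offset. The score and p-value were not used. Inputs have no list of their own, and read totals and the authors' differential regions were not used here.

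The genome was GRCm38.p6 with GENCODE M21 starts. Sites were found with Python 3.11.15, numpy 2.4.6 and numba 0.67.0, and tested with scipy 1.17.1. On simulated data the search recovered 100% of 200 planted sites. Positions were made 1-based. Guides were compared by two-sided exact permutation tests over libraries, and shares carry exact (Clopper-Pearson) binomial intervals, while the limit beside a count of 0 is 3 counts of the total. Figures were drawn with matplotlib 3.10.9.

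Named sites are up to 12 bound in all 3 dCas9:gRNA3 libraries (by median fold), up to 8 in 2 (by mean fold), up to 4 with a gRNAscr peak and up to 5 unbound with fewest mismatches, of which 2 in all are not reported here. Members, classes and naming rules were chosen with earlier results of these data known. Alternatives were stricter q-value and fold thresholds, other overlap rules, each library left out, a replicate block, NAG, repeated sequences left out, other start sets and distances, another first guide base, and 2 added after the data were seen (repeats, and members within 500 bases of another).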

Additional observations from a re-analysis of the deposited data

How the results depend on the processing

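No setting could bring a p under 0.05, so only directions and sizes were compared, and 127 values kept their direction or, for the count, stayed within 1.5 times the main one. The 32 members bound with gRNA3 alone became 21 under a q-value threshold of 5 on the −log10 scale, 15 when all 3 libraries were required, 2 with NAG as the PAM, and between 15 and 33 with 1 library left out. With NAG, the difference between guides reversed for run of 9 minus run of 8 (-0.0368 percentage points), purine minus pyrimidine (-0.0601) and within 1 kb minus beyond (-0.0435). The difference by matches beyond the first mismatch reversed with a fold enrichment of at least 4 (-0.269), with NAG (-0.113) and without repeats (-0.719, added after the data were seen), was 0.321 under the q-value threshold of 5, 0.299 by summit within 50 bases and 0.510 without sites that share a 23-base sequence (each with an exact permutation p = 0.1), and ranged from -0.0301 without dCas9:gRNA3 replicate 1 to 0.360 without replicate 3. The cause of these was not tested. Replicate 3 set the size of several differences, and without it that of all members over all NGG sites was 0.391, that of purine over pyrimidine 0.438 and that near starts 0.214. The near-start difference was 0.018 with a fold enrichment of at least 4 and 0.104 at 5 kb, CGG minus other PAMs was 0.642 with that fold and 0.729 without repeats, purine minus pyrimidine was 1.32 without repeats and 0.496 under the q-value threshold of 5, and run of 9 minus run of 8 was 0.672 under that threshold. Without replicate 1, run of 9 minus run of 8 was 0.306.

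The replicate numbers were not taken to pair the samples. Deviations of same-numbered libraries over 7594 merged regions had Pearson r of -0.0478, 0.144 and 0.151. Differently numbered libraries of the 2 guides ranged from -0.163 to 0.0973, so these values do not settle whether the numbers pair. As a replicate block, the differences stayed the same by construction (0.571 for all members), and the smallest p that the exact permutation test within pairs allows rises to 0.25. The 7 members with up to 4 mismatches are too few for a comparison of their own, and the effect of read depth was not tested.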

Other observations

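Sites with the same run of 8 or 9 bases before NAG, a weaker PAM, were counted in the same way. There were 5408 of them, of which 1, 2 and 15 were bound in dCas9:gRNA3 replicates 1, 2 and 3 (0.0185%, 0.0370% and 0.277%) and 0 with gRNAscr, beside 0.00239%, 0.0274% and 0.0935% of all NAG sites. With NGG the same libraries bound 17, 33 and 64 members. The only NAG site bound in all 3 libraries, at chr9:54738590-54738612 with a run of 8 before CAG, had fold enrichments of 5.84, 5.00 and 9.93. A site at chr11:112470675-112470697 with a run of 8 before GAG and 6 mismatches had 7.83 and 6.66 in replicates 2 and 3. Both were named after their values were seen.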
